A study of Rattus norvegicus with 22 samples.

Results

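The 10 genes followed here belong to the unfolded protein response and the integrated stress response, and were measured in rat liver: Hspa5, Hsp90b1, Dnajb9, Herpud1, Atf4, Atf3, Ddit3, Xbp1, Trib3 and Asns. They were taken by name, as every non-control probe whose gene name on the array was one of the 10, out of 26276 gene names. Each was reported by 1 probe. The rats were male Sprague–Dawley animals on semi-synthetic diets. Lard was the main fat of control diet (CD), beside rapeseed oil, while BASE-diet (BD) had salmon fat in place of most of the lard, and more rapeseed oil. BASE-diet also held extract of linden inflorescence, giant pumpkin puree and probiotic strains, given in the labels as Bifidobacterium animals ssp. lactis and Lactobacillus acidophilus LA-5. After 3 months of feeding there were 5 rats on each diet (CD 3 and BD 3), and after 14 months 6 rats on each (CD 14 and BD 14), so age and length of feeding rose together. RNA of each liver was hybridized on an array of its own in Cy5 against a Cy3-labelled common reference, the combined liver RNA of healthy young rats that took no part in the feeding, and a log2 ratio of 0 means the level of that reference. The labels give these dyes for every array, while the methods name the dyes by diet, and the labels were followed.

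When unfolded protein collects in the endoplasmic reticulum (ER), the sensors Ire1, Perk and Atf6 raise chaperone and degradation genes through Xbp1, Atf6 and Atf4. Shortage of amino acids reaches Atf4 by another kinase, which phosphorylates the translation factor eIF2alpha, and Atf4 then raises genes such as Asns, Trib3 and Ddit3. Hepatocytes, which secrete most plasma proteins, carry a large ER. All 10 hepatocyte markers examined were well above background on every array, the brightest being Ttr. In whole liver, fewer cells of a type and less RNA per cell cannot be told apart.

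All 10 probes were well above background in both channels on all 22 arrays, and none was saturated in Cy5, so each passed the filter on dim probes in every group. The share of spots well above background ran from 52.4% to 93.6% in CD 3, from 67.5% to 92.4% in BD 3, from 67.3% to 90.6% in CD 14 and from 69.1% to 74.3% in BD 14. The number of arrays limits the precision. The arrays lay on 5 slides, here A to E. On slide A lay 3 arrays of BD 3 with 3 of CD 14, on slide B 1 of CD 3 with 2 of BD 3, and on slide C all 6 of BD 14 with 2 of CD 14. Slide D had CD 3 alone (3 arrays), and slide E 1 array each of CD 3 and CD 14. Slide and group were thus partly confounded, and a model with slide as a block turned the sign of 6 of the 10 member differences for BD 3 against CD 3, 4 for BD 14 against CD 14, 4 for CD 14 against CD 3 and 3 for BD 14 against BD 3. An array each in CD 3 and BD 14 stood apart for these genes, CD 3 replicate 4 and BD 14 replicate 2, and the choice to give correlations and gene lists without them, and gene lists with slide as a block, was made after seeing the data.

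No member passed limma at an adjusted p under 0.05 in any comparison, nor under any of the alternatives run, array left out included. The threshold was passed by 0% of the 19425 probes tested for BD 3 against CD 3, 0% for BD 14 against CD 14, 0% for CD 14 against CD 3, 0% for BD 14 against BD 3, 0% for the interaction of diet and time, and 0.0257% for the F test over the 4 groups. At an unadjusted p under 0.05, 1 member differed for BD 3 against CD 3 (Hsp90b1; 7.11% of probes), 0 for BD 14 against CD 14 (4.59%), 1 for CD 14 against CD 3 (Hsp90b1; 10.1%), 1 for BD 14 against BD 3 (Asns; 7.43%) and 0 for the interaction (4.79%). The F test gave 2, Hsp90b1 and Asns (10.5%). Without BD 14 replicate 2 the count for BD 14 against CD 14 was 2, with Herpud1 higher and Atf4 lower in BD 14, among 715 of the 19425 probes, and that for the interaction was 2, Hsp90b1 and Herpud1, among 911. With any single array left out the counts stayed within 0 to 2. For 10 genes, counts of 0 or 1 are near these shares. Counts of 2 lie above them, but 2 genes of 10 are too few for a result about the members. The median difference of the members was −0.075 for BD 3 against CD 3, 0.24 for BD 14 against CD 14, −0.0034 for CD 14 against CD 3 and 0.25 for BD 14 against BD 3, beside 0.031, 0.045, 0.029 and 0.072 over all probes tested.

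**Figure D1:**
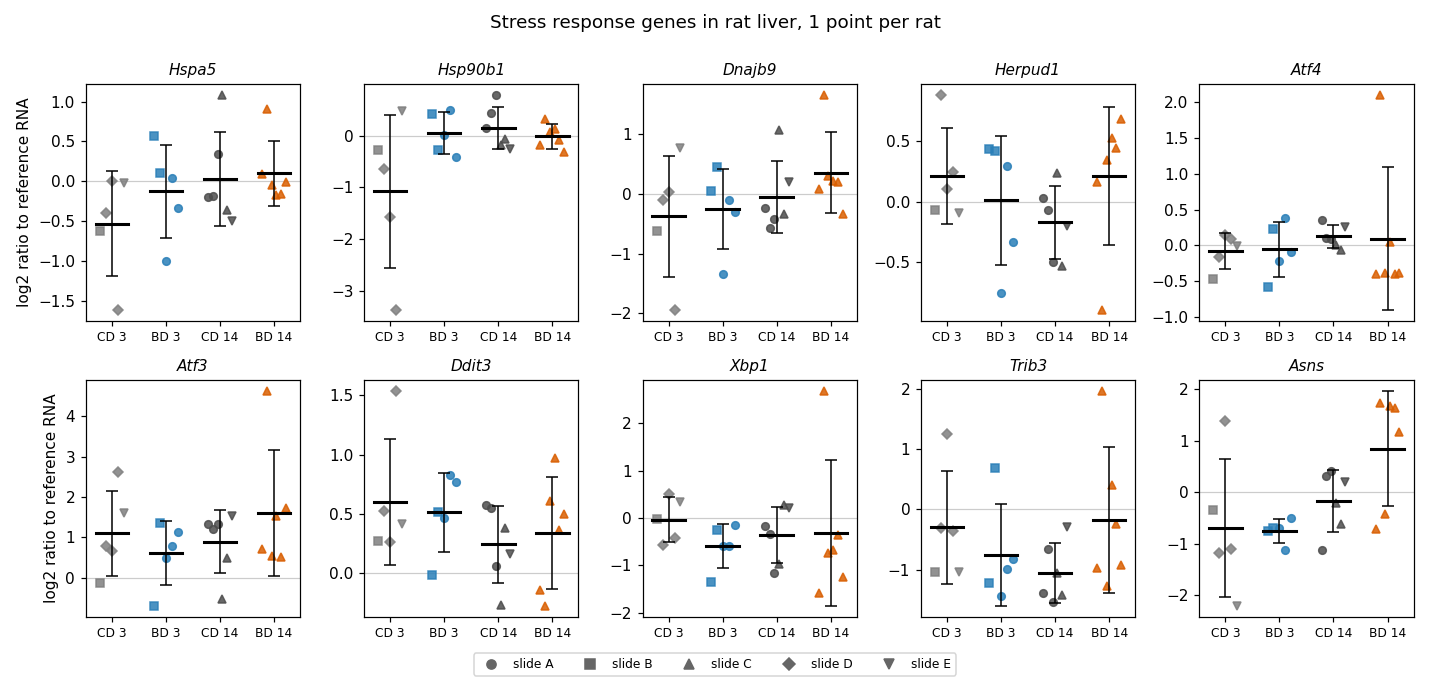
Log2 ratio to the reference RNA of each member (vertical axes) in the 4 groups (horizontal axes), 1 point per rat, with marker shape for the slide, a line at the mean and bars of 1 SD. The groups overlapped for every member in all 4 pairwise comparisons, with BD 14 replicate 2 highest for Atf4 (2.09) and Atf3 (4.63).

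Among the ER chaperones, Hspa5 (BiP; A_44_P1054213, chr3:13787739-13787798, plus strand of build rn4) binds unfolded chains in the ER and holds the sensors inactive. Its log2 ratios in CD 3 were −0.62, −0.40, 0.0067, −1.61 and −0.024. Those in BD 3 were 0.57, 0.10, −0.99, 0.038 and −0.33. The lowest, median and highest were −0.50, −0.19 and 1.08 in CD 14, and −0.17, −0.023 and 0.91 in BD 14. From low to high the group means came as CD 3, then BD 3, then CD 14 and last BD 14, and neighbours in that order differed by less than their SDs. The place of BD 14 above CD 14 did not hold with some single rats left out: their difference of 0.073 turned to −0.089 without BD 14 replicate 2. It also turned sign without CD 14 replicate 5 and without CD 14 replicate 6, and was −0.26 with slide as a block. Hsp90b1 (Grp94; A_43_P15719, chr7:23334474-23334623, minus strand), the ER member of the Hsp90 family, had the largest SD of the members within CD 3. Its CD 3 values were −0.29, −0.65, −1.58, −3.37 and 0.48, and in BD 3 they were 0.41, −0.28, 0.0065, 0.49 and −0.42. The lowest, median and highest were −0.27, 0.042 and 0.78 in CD 14 and −0.33, −0.015 and 0.33 in BD 14. All 3 CD 3 rats on slide D, replicates 2, 3 and 4, were below every rat of the other groups, while the remaining 2 CD 3 rats lay among them. BD 3 exceeded CD 3 by 1.12 (SE 0.46), with a limma 95% interval of 0.17 to 2.07 and a limma adjusted p of 0.606 (exact permutation p = 0.127, 0.564 after adjustment over 40 tests). CD 14 exceeded CD 3 by 1.22 (SE 0.44), interval 0.31 to 2.13, limma adjusted p = 0.334 (exact permutation p = 0.052, 0.564 after adjustment over 40 tests). In the model with slide as a block both differences turned sign, to −0.20 and −0.015. Within slide B, 2 BD 3 arrays exceeded the CD 3 array by 0.35, and on slide E the CD 14 array minus the CD 3 array was −0.75, so that the difference from CD 3 did not hold within slide E. Without CD 3 replicate 4 the differences were 0.55 and 0.65. That array had the lowest share of spots well above background, 52.4%. Without CD 3 replicate 5, the highest CD 3 rat for Hsp90b1, they were 1.51 (limma adjusted p = 0.141) and 1.61 (limma adjusted p = 0.0592), the latter the lowest adjusted p of any member under any alternative.

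Dnajb9 (ERdj4; A_44_P127597, chr6:63583604-63583663, minus strand) is a co-chaperone of Hspa5 that is induced through Xbp1. The mean log2 ratio in CD 3 was −0.38 ± 1.01 (SD, n = 5), and BD 3 had −0.25 ± 0.67 (SD, n = 5). The CD 14 mean was −0.047 ± 0.60 (SD, n = 6), and BD 14 had 0.35 ± 0.68 (SD, n = 6). The means stood in that order from low to high, with each step smaller than the SDs. Without CD 3 replicate 4 the CD 3 mean was no longer the lowest: BD 3 minus CD 3 turned from 0.13 to −0.26, and CD 14 minus CD 3 from 0.33 to −0.062. BD 14 minus CD 14 was 0.40 for Dnajb9, 0.14 without BD 14 replicate 2 and −0.014 with slide as a block. Herpud1 (A_44_P1047924, chr19:11036709-11036768, minus strand), an ER membrane protein of ER-associated degradation, ran from −0.89 to 0.88 over the 22 rats, the lowest being BD 14 replicate 2 and the highest a CD 3 rat. BD 14 minus CD 14 was 0.38 (SE 0.27) for Herpud1, with a limma adjusted p of 0.952, and 0.60 without BD 14 replicate 2 (limma adjusted p = 0.999).

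Of the transcription factors, Atf4 (A_42_P620762, chr7:118538840-118538899, plus strand) is the main effector of eIF2alpha phosphorylation and is controlled largely at translation. In CD 3 the 5 rats had −0.47, −0.16, 0.14, 0.10 and −0.0019, and in BD 3 −0.57, 0.24, −0.22, 0.39 and −0.10. The lowest, median and highest were −0.062, 0.10 and 0.35 in CD 14 and −0.40, −0.39 and 2.09 in BD 14. A single BD 14 rat, replicate 2, set the top of the BD 14 range, and the remaining BD 14 rats were all at or below 0.05. BD 14 minus CD 14 was −0.030 (SE 0.32) for Atf4, limma adjusted p = 0.997, and −0.43 without that rat (limma adjusted p = 0.999). From Cy5 signals alone the difference with all rats had the other sign (0.21), as it did for CD 14 against CD 3 (−0.10, against 0.20 from ratios).

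Atf3 (A_43_P11616, chr13:107191691-107191749, minus strand), induced by Atf4 and by many acute stimuli, was above the reference in the mean of each group. Its CD 3 values were −0.14, 0.77, 0.67, 2.63 and 1.59, and its BD 3 values were −0.70, 1.35, 0.48, 0.78 and 1.14. The lowest, median and highest were −0.53, 1.27 and 1.53 in CD 14 and 0.52, 1.12 and 4.63 in BD 14. Its highest value was again BD 14 replicate 2, and BD 14 minus BD 3 went from 0.996 to 0.39 without it. Ddit3 (Chop; A_64_P059495, chr7:67252505-67252564, plus strand), a factor linked to cell death under lasting ER stress, had a CD 3 mean of 0.60 ± 0.53 (SD, n = 5), and BD 3 had 0.52 ± 0.33 (SD, n = 5). Its CD 14 mean was 0.25 ± 0.32 (SD, n = 6), and that of BD 14 0.34 ± 0.47 (SD, n = 6). CD 14 minus CD 3 was −0.36 for Ddit3 (limma adjusted p = 0.688), and −0.12 without CD 3 replicate 4, the highest CD 3 rat for this gene at 1.54. BD 3 minus CD 3 was −0.088, and turned to 0.15 without that array. Xbp1 (A_64_P011894, chr14:86156913-86156972, plus strand) is spliced by Ire1 in the unfolded protein response, and whether the probe reads both forms was not looked at. Its CD 3 values were −0.030, −0.57, 0.51, −0.43 and 0.35, and its BD 3 values −1.35, −0.25, −0.60, −0.60 and −0.15. All 5 BD 3 rats were below the CD 3 median of −0.030, with a difference of −0.56 (SE 0.55) (limma adjusted p = 0.89; exact permutation p = 0.111, 0.564 after adjustment over 40 tests). Its lowest, median and highest were −1.17, −0.25 and 0.28 in CD 14 and −1.58, −0.71 and 2.69 in BD 14. BD 14 minus CD 14 was 0.040 for Xbp1 with all rats and −0.56 without BD 14 replicate 2, and with all rats it turned to −0.030 from Cy5 signals alone and −0.024 with arrays centred on their medians.

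Trib3 (A_64_P117901, chr3:142664936-142664995, minus strand), a pseudokinase gene raised by Atf4 and Ddit3, had its lowest group mean in CD 14. Its values were −1.05, −0.31, 1.25, −0.36 and −1.03 in CD 3, and −1.22, 0.70, −1.44, −0.99 and −0.83 in BD 3. The lowest, median and highest were −1.54, −1.23 and −0.29 in CD 14 and −1.28, −0.59 and 1.97 in BD 14. BD 14 exceeded CD 14 by 0.88 (SE 0.49), limma adjusted p = 0.952, and by 0.45 without BD 14 replicate 2. Asns (A_44_P480267, chr4:32759136-32759195, minus strand), asparagine synthetase and a classic target of Atf4, had the largest difference among the members. Its CD 3 values were −0.35, −1.19, 1.38, −1.10 and −2.20. Its BD 3 values were −0.75, −0.69, −0.69, −1.13 and −0.50, the narrowest spread of the 4 groups. The lowest, median and highest were −1.11, −0.011 and 0.40 in CD 14 and −0.71, 1.40 and 1.73 in BD 14. Of the 6 BD 14 rats 5 were above every BD 3 rat, and 4 were above every CD 14 rat. BD 14 exceeded BD 3 by 1.60 (SE 0.52), 3.03-fold, with an interval of 0.51 to 2.69 and a limma adjusted p of 0.447 (exact permutation p = 0.0238, 0.564 after adjustment over 40 tests). The difference was 1.05 after normexp and loess, 1.42 without BD 14 replicate 2 and 2.24 when slide was a block (limma adjusted p = 0.991), with adjusted p of 0.162 to 0.991 over the alternatives in limma. No slide held both groups. The Cy5 processed signal of Asns was low in BD 3, with a lowest, median and highest of 49.5, 67.2 and 161. Over all non-control spots the median signal of the BD 3 arrays ran from 75.5 to 94.1. In BD 14 the Asns signal had a lowest, median and highest of 63.1, 267 and 708. BD 14 exceeded CD 14 by 1.02 (SE 0.50) in Asns, limma adjusted p = 0.952, and by 1.26 within slide C.

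**Figure D2:**
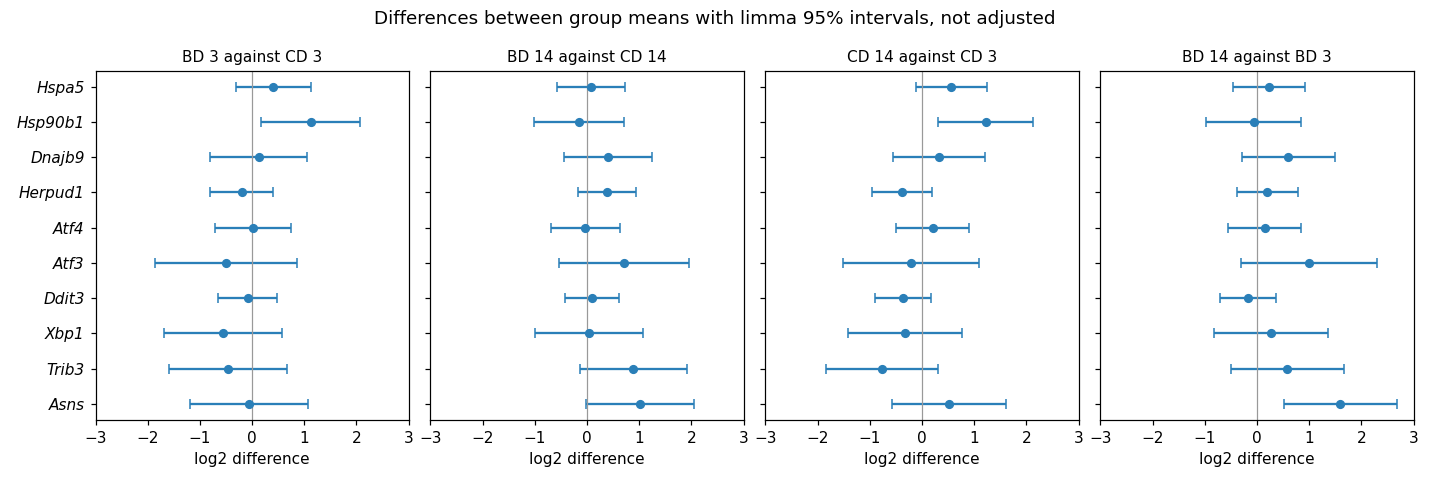
Differences in log2 ratio (horizontal axes) between group means for the 10 members (vertical axis) in the 4 pairwise comparisons, as points with limma 95% intervals that are not adjusted for the number of probes. The intervals exclude 0 for Hsp90b1 in both comparisons with CD 3, where a model with slide as a block turned the sign, and for Asns in BD 14 against BD 3.

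The diet effects at 14 and at 3 months did not differ past the threshold for any member. For Hsp90b1 the interaction was −1.28 (SE 0.62) with a limma adjusted p of 0.9995, and the slide model turned the interaction to 0.31. It was smaller in size without CD 3 replicate 4, as was the difference of BD 3 from CD 3 given above. For Trib3 the interaction was 1.34 (SE 0.73), limma adjusted p = 0.9995, and 0.26 in the slide model.

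BD 14 replicate 2 was followed through the other genes of the pathway, as a description of 1 rat with no test. Over all 19414 probes with a value on all BD 14 arrays, 30.4% were above the other 5 BD 14 rats in this rat and 23.1% below them. Of the 23 Atf4 targets of amino acid metabolism and tRNA charging tested, it was above the other 5 for 18, with a median deviation from them of 0.94. Of 14 immediate early genes, which respond within minutes to stimuli, it was above for 12, with a median deviation of 2.75. Of 19 further ER chaperones and folding enzymes it was above for 5 and below for 4, with a median deviation of 0.050. Of the members, Hspa5, Hsp90b1, Dnajb9, Atf4, Atf3, Xbp1, Trib3 and Asns were each higher in this rat than in the other 5, and Ddit3 and Herpud1 were each lower. Of the 9 macrophage markers with a value on all BD 14 arrays, 2 were above and 3 below the other 5 in this rat. Over all 10 macrophage markers the summed quantile-normalized Cy5 signal of this rat was 23810, in a BD 14 range of 12220 to 26450. Of 6 lymphocyte and plasma cell markers 5 were above the other 5, with a median deviation of 1.34, and their part was not tested. CD 3 replicate 4 had a median deviation of −1.10 over the same 19 ER chaperones and of −1.10 over the 10 hepatocyte markers, of which 9 were below all other CD 3 rats, and 0.94 over the immediate early genes. Shares over all probes are not given for that array, which had the lowest share of spots well above background. These values are therefore not a result about those lists.

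Variation between rats of one group was compared by correlating members after the group mean was subtracted, and where arrays were left out the means were taken again without them, a choice made after seeing the data. Of 45 pairs, 11 had a Pearson adjusted p under 0.05 by permutation, and 4 a Spearman one. The share of pairs that pass among all genes is not given, so these counts are not a result about the members as a set. Hspa5 and Dnajb9 rose and fell together over the 22 arrays (r = 0.84, permutation p = 1e-05, the smallest that 100000 permutations can give, adjusted 0.00045; rho = 0.70, permutation p = 0.0005, adjusted 0.00975). Without the 2 arrays farthest from the median of Hspa5, CD 14 replicate 4 and CD 3 replicate 4, r was 0.71, within slide A it was 0.81, and within slide C 0.90, or 0.83 there without BD 14 replicate 2. Without both arrays that stood apart it was 0.72 (adjusted permutation p = 0.0288). The chaperone Hspa5 and the factor Ddit3 ran in opposite directions, with r = −0.72 (permutation p = 0.00021, adjusted 0.00236) and rho = −0.69 (permutation p = 0.00065, adjusted 0.00975). This was −0.50 without the same 2 arrays farthest in Hspa5, 0.056 within slide A, −0.76 within slide C (−0.61 without BD 14 replicate 2) and −0.50 without both arrays that stood apart (adjusted permutation p = 0.0974). It did not hold within slide A, and from Cy5 signals alone r was −0.44 (adjusted permutation p = 0.118).

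Atf4 and Atf3 had r = 0.83 (permutation p = 2e-05, adjusted 0.00045) and rho = 0.76 (permutation p = 7e-05, adjusted 0.00315). Without the 2 arrays farthest in Atf4, BD 14 replicate 2 and BD 3 replicate 4, r was 0.72. Without BD 14 replicate 2 it was 0.66 (adjusted permutation p = 0.0136), and within slide A it was 0.16, so that it did not hold there. Within slide C, which holds that rat, it was 0.94, and 0.36 without it. Atf4 and Xbp1 had r = 0.84 over all arrays (permutation p = 0.00028, adjusted 0.00252; rho = 0.58, permutation p = 0.00585, adjusted 0.0527), and 0.36 without BD 14 replicate 2 (adjusted permutation p = 0.285), so that this relation rested on that rat. It was 0.41 without the 2 arrays farthest in Atf4 and 0.11 within slide A. Within slide C it was 0.92 with that rat and 0.11 without it. Trib3 and Asns had r = 0.64 (permutation p = 0.00139, adjusted 0.00894; rho = 0.56, permutation p = 0.00819, adjusted 0.0604) and 0.63 without both arrays (adjusted permutation p = 0.0386). For this pair r was 0.44 without the 2 arrays farthest in Trib3, BD 14 replicate 2 and CD 3 replicate 3, and 0.26 within slide A. Within slide C it was 0.70, and 0.79 without BD 14 replicate 2.

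Atf4 and Trib3 had r = 0.74 (permutation p = 0.00012, adjusted 0.0018; rho = 0.63, permutation p = 0.00219, adjusted 0.0246). Without the 2 arrays farthest in Atf4, BD 14 replicate 2 and BD 3 replicate 4, r was 0.68, and without BD 14 replicate 2 alone 0.55 (adjusted permutation p = 0.0619). Within slide A it stood at 0.10 for Atf4 and Trib3, and within slide C at 0.92, or 0.82 without that rat. The factor and its target thus passed by both measures with all arrays, and by neither once that rat was left out. Herpud1 and Xbp1 had r = −0.65 (permutation p = 0.00227, adjusted 0.0118; rho = −0.55, permutation p = 0.00939, adjusted 0.0604). Without the 2 arrays farthest in Herpud1, BD 14 replicate 2 and BD 3 replicate 3, it was −0.36, and without BD 14 replicate 2 alone −0.29 (adjusted permutation p = 0.402). Within slide A it stood at 0.37 for Herpud1 and Xbp1, and within slide C at −0.89, or −0.43 without that rat. The remaining 4 pairs that passed by Pearson did not pass by Spearman. Dnajb9 and Ddit3 had r = −0.61 (permutation p = 0.00235, adjusted 0.0118; rho = −0.51, permutation p = 0.0163, adjusted 0.0919), −0.24 without BD 14 replicate 2 and CD 3 replicate 4, the 2 arrays farthest in Dnajb9, 0.57 within slide A, −0.64 within slide C (−0.37 there without BD 14 replicate 2), and −0.54 over all slides without BD 14 replicate 2 (adjusted permutation p = 0.0619). Atf3 and Xbp1 had r = 0.66 (permutation p = 0.00383, adjusted 0.0172; rho = 0.45, permutation p = 0.0379, adjusted 0.171), 0.35 without BD 14 replicate 2 and CD 3 replicate 4, the 2 arrays farthest in Atf3, 0.31 within slide A, 0.89 within slide C (0.19 there without BD 14 replicate 2), and 0.19 over all slides without BD 14 replicate 2 (adjusted permutation p = 0.637). Atf3 and Trib3 had r = 0.56 (permutation p = 0.0075, adjusted 0.0307; rho = 0.40, permutation p = 0.0625, adjusted 0.234), 0.29 without BD 14 replicate 2 and CD 3 replicate 4, the 2 arrays farthest in Atf3, 0.36 within slide A, 0.83 within slide C (0.19 there without BD 14 replicate 2), and 0.24 over all slides without BD 14 replicate 2 (adjusted permutation p = 0.536). Xbp1 and Trib3 had r = 0.68 (permutation p = 0.00064, adjusted 0.0048; rho = 0.49, permutation p = 0.0209, adjusted 0.105), 0.38 without BD 14 replicate 1 and BD 14 replicate 2, the 2 arrays farthest in Xbp1, 0.53 within slide A, 0.85 within slide C (0.24 there without BD 14 replicate 2), and 0.40 over all slides without BD 14 replicate 2 (adjusted permutation p = 0.229). A pair outside these 11, Atf3 and Ddit3, passed by Pearson once BD 14 replicate 2 was left out, with r = 0.72 (permutation p = 0.00017, adjusted 0.00382; rho = 0.56, permutation p = 0.00994, adjusted 0.103). With all arrays its r was 0.21 (adjusted permutation p = 0.605), without both arrays that stood apart 0.60 (adjusted permutation p = 0.0564), and without that rat and the 2 arrays then farthest in Atf3, BD 3 replicate 1 and CD 14 replicate 4, 0.61. Within slide A the r of Atf3 and Ddit3 was 0.33, and within slide C −0.35 with that rat and 0.61 without it. Dnajb9 and Atf4, at r = 0.44 with all arrays (adjusted permutation p = 0.114), passed by Pearson only without CD 3 replicate 4, at 0.59 (adjusted permutation p = 0.0203). Of the 45 pairs, 5 passed by Pearson and 3 by Spearman without BD 14 replicate 2, and 3 and 0 without both arrays. The 5 were Atf3 and Ddit3 with 4 of the 11, Hspa5 and Dnajb9, Hspa5 and Ddit3, Atf4 and Atf3, and Trib3 and Asns, and the 3 without both arrays were Hspa5 and Dnajb9, Atf4 and Atf3, and Trib3 and Asns.

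**Figure D3:**
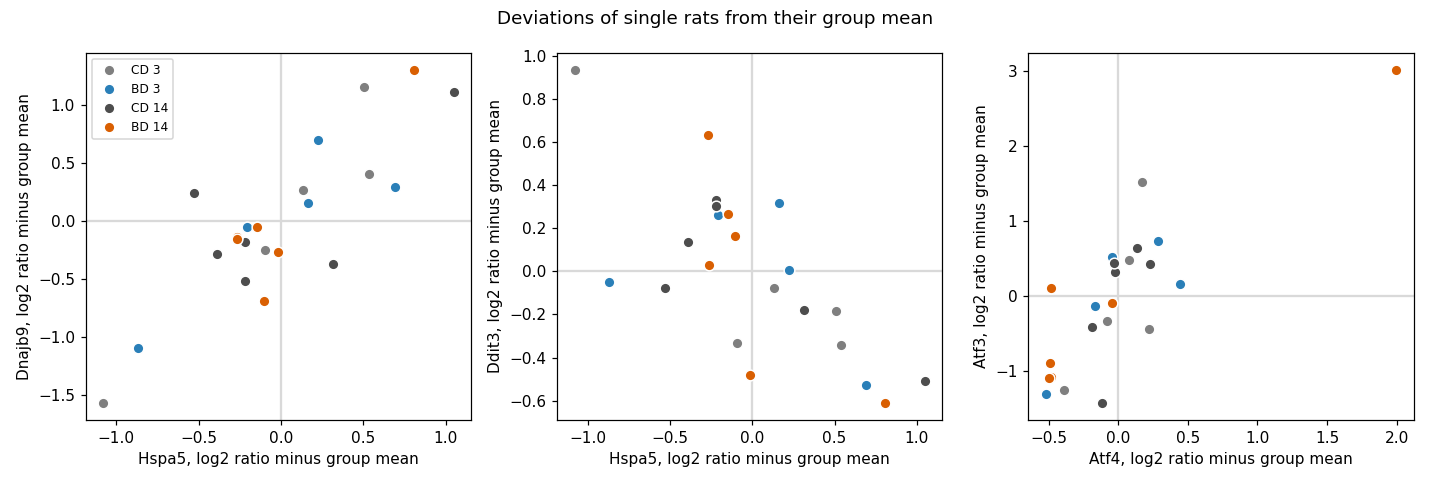
Deviation of each rat from its group mean in log2 ratio for 3 pairs of members (Hspa5 and Dnajb9, Hspa5 and Ddit3, Atf4 and Atf3), with both axes in log2 units and 1 point per rat coloured by group. In the plot of Atf4 and Atf3 the point at the upper right is BD 14 replicate 2, without which r was 0.66.

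Of the wider pathway, no gene of any list passed limma at an adjusted p under 0.05, either as fitted here, with slide as a block or without either array that stood apart, and the counts that follow are at an unadjusted p under 0.05. At that p, 4.99% of all probes were higher and 2.12% lower in BD 3 than in CD 3, and 3.79% and 0.803% in BD 14 than in CD 14. For CD 14 against CD 3 the shares were 6.85% and 3.28%, and for BD 14 against BD 3 they were 4.75% and 2.68%. With slide as a block the median difference over all probes was 0.15 for BD 3 against CD 3, 0.030 for BD 14 against CD 14, 0.14 for CD 14 against CD 3 and 0.0027 for BD 14 against BD 3. In that order of comparisons, 1381, 892, 1969 and 1443 of the 19425 probes had an unadjusted p under 0.05 in either direction as fitted here. With slide as a block the numbers were 2146, 1515, 1167 and 901. They were 1447, 715, 2097 and 1332 without BD 14 replicate 2, and 1172, 1356, 2359 and 1838 without CD 3 replicate 4. Of 23 tested Atf4 targets of amino acid metabolism, 3 were higher and 0 lower in BD 14 than in BD 3, with a list median of 0.33 against 0.072 over all probes. BD 14 replicate 2, high for most of these genes, moved that median: without it 3 were higher with a median of 0.17, and with slide as a block 4 with a median of 0.58, among which Psat1 and Phgdh but not Mthfd2, whose difference went from 1.52 to 1.12. Without CD 3 replicate 4, which enters here through the shared spread alone, 6 were higher. The count over all 19425 probes, in either direction, rose from 1443 to 1838 in that fit. The serine synthesis gene Psat1 was 0.91 ± 1.01 (SD, n = 6) against −0.93 ± 0.51 (SD, n = 5), limma adjusted p = 0.577. Its neighbour in the pathway Phgdh was 0.10 ± 1.23 (SD, n = 6) against −1.47 ± 0.65 (SD, n = 5), limma adjusted p = 0.611. The mitochondrial folate gene Mthfd2 was 0.53 ± 1.37 (SD, n = 6) against −0.997 ± 0.25 (SD, n = 5), limma adjusted p = 0.447. These are genes of serine and one-carbon metabolism. In BD 14 against CD 14, 1 gene of that list was higher, the amino acid transporter subunit Slc3a2, at 0.39 ± 0.36 (SD, n = 6) against −0.47 ± 0.35 (SD, n = 6), limma adjusted p = 0.952. The count there was 0 without BD 14 replicate 2, 2 without CD 3 replicate 4 and 4 with slide as a block. Over all 19425 probes the count of either direction was 715, 1356 and 1515 in those fits, against 892 as fitted here. Of the 12 other Atf4 targets tested, the stress-induced Nupr1 in CD 14 against CD 3 was 0.47 ± 0.50 (SD, n = 6) against −0.31 ± 0.53 (SD, n = 5), limma adjusted p = 0.416. Leaving out CD 3 replicate 4 left 0 of the 12 higher and 1 lower in that comparison, and the slide model gave 0 higher. The Nupr1 difference of 0.78 was 0.67 without that array and 0.79 in the slide model, each at an unadjusted p above 0.05. In BD 14 against BD 3 it was 0.79 ± 0.70 (SD, n = 6) against 0.090 ± 0.43 (SD, n = 5), limma adjusted p = 0.657. For BD 14 against CD 14, Eif4ebp1, which binds a translation initiation factor, was 0.69 ± 0.43 (SD, n = 6) against 0.21 ± 0.36 (SD, n = 6), limma adjusted p = 0.952. In that comparison 0 of the 12 were higher once BD 14 replicate 2 was left out, and 3 without CD 3 replicate 4.

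Of 16 genes on the list of sensors and eIF2alpha control, which also held Nfe2l2, 1 was lower in BD 3 than in CD 3. In BD 14, 2 of them were higher than in BD 3. Nfe2l2, a factor of the oxidative stress response that Perk phosphorylates, was the lower one in BD 3, 0.17 ± 0.26 (SD, n = 5) against 0.66 ± 0.33 (SD, n = 5), limma adjusted p = 0.54. It was also higher in BD 14 than in BD 3, 0.74 ± 0.22 (SD, n = 6) against 0.17 ± 0.26 (SD, n = 5), limma adjusted p = 0.395. The other one was Eif2ak2, a kinase gene that responds to double-stranded RNA, 0.85 ± 0.77 (SD, n = 6) against −0.10 ± 0.33 (SD, n = 5), limma adjusted p = 0.482. With slide as a block 0 of the 16 were higher in that comparison, and the Nfe2l2 difference went from 0.57 to 0.28. Of 19 further ER chaperones and folding enzymes, the calcium-binding chaperone Calr was higher in BD 3 than in CD 3, −0.33 ± 0.70 (SD, n = 5) against −1.49 ± 1.23 (SD, n = 5), limma adjusted p = 0.63. The Calr difference of 1.17 was 0.73 without CD 3 replicate 4 and turned to −0.22 with slide as a block. The disulfide reductase Dnajc10 was higher in CD 14 than in CD 3, 0.23 ± 0.32 (SD, n = 6) against −0.33 ± 0.38 (SD, n = 5), limma adjusted p = 0.416. The list median was 0.40 in CD 14 against CD 3, beside 0.029 over all probes. Without CD 3 replicate 4, which was low over this list, it was 0.12, and 0.30 with slide as a block. For BD 14 against CD 14, where 0 of the 19 were lower, the slide model gave 3 lower and turned the list median from 0.064 to −0.20. Over all 19425 probes, the count of either direction went from 892 to 1515 in that model. Of 18 genes of ER translocation and degradation, the translocon-associated Ssr3 was lower in BD 3 than in CD 3, −0.19 ± 0.19 (SD, n = 5) against 0.46 ± 0.35 (SD, n = 5), limma adjusted p = 0.525. Tram1 was higher in CD 14 than in CD 3, 0.68 ± 0.46 (SD, n = 6) against −0.087 ± 0.72 (SD, n = 5), limma adjusted p = 0.331. The same comparison of the translocon subunit Sec61g gave 0.14 ± 0.14 (SD, n = 6) against −0.23 ± 0.25 (SD, n = 5), limma adjusted p = 0.453. Ssr1, of the complex that also holds Ssr3, was higher in BD 14 than in BD 3, 0.69 ± 0.15 (SD, n = 6) against 0.24 ± 0.24 (SD, n = 5), limma adjusted p = 0.593. In the slide model Ssr1 turned from 0.45 to −0.23, and Tram1 went from 0.76 to 0.056. That model gave Ssr3 −0.43, Sec61g 0.43 and Dnajc10 0.36, each at an unadjusted p above 0.05. It also gave 4 of the 18 lower in BD 14 than in CD 14, with a list median of −0.20, against 0 and −0.013 without slide. Beside this stand the 1515 of 19425 probes, in either direction, that the slide model gave at that p in this comparison. Without CD 3 replicate 4 Tram1 was 0.44.

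Of 19 cytosolic and mitochondrial heat shock genes, 1 was higher and 1 lower in BD 3 than in CD 3, 2 were higher in BD 14 than in CD 14, and 2 were lower in CD 14 than in CD 3. For BD 14 against CD 14 the count was 0 without BD 14 replicate 2. Leaving out CD 3 replicate 4 left 0 higher in BD 3 than in CD 3 and 0 lower in CD 14 than in CD 3. The slide model gave 0 higher and 0 lower for BD 3 against CD 3, 2 higher for BD 14 against CD 14 and 0 lower for CD 14 against CD 3. Neither Hspb8 nor Lonp1, the pair that was higher in BD 14 than in CD 14 without slide, was among the 2: the Hspb8 difference went from 1.06 to 1.28 and that of Lonp1 from 0.58 to 0.28. The cytosolic Dnajb4 in BD 3 against CD 3 was −0.29 ± 0.45 (SD, n = 5) against 0.60 ± 0.76 (SD, n = 5), limma adjusted p = 0.527. For mitochondrial Hspa9 the same comparison gave −0.33 ± 0.12 (SD, n = 5) against −1.16 ± 0.81 (SD, n = 5), limma adjusted p = 0.654. With slide as a block the Dnajb4 difference went from −0.89 to −0.025 and that of Hspa9 from 0.83 to 0.088. The small heat shock gene Hspb8 in BD 14 against CD 14 was 0.69 ± 0.92 (SD, n = 6) against −0.38 ± 0.57 (SD, n = 6), limma adjusted p = 0.952. Lonp1, a mitochondrial protease, gave 0.34 ± 0.20 (SD, n = 6) against −0.24 ± 0.44 (SD, n = 6), limma adjusted p = 0.952 there. The regulator of the heat shock response Hsf1 in CD 14 against CD 3 was −0.089 ± 0.25 (SD, n = 6) against 0.49 ± 0.59 (SD, n = 5), limma adjusted p = 0.416. The cytosolic Hsp90 gene Hsp90ab1 gave −0.16 ± 0.21 (SD, n = 6) against 0.22 ± 0.25 (SD, n = 5), limma adjusted p = 0.478 there. In the slide model the difference went from −0.58 to −0.48 in Hsf1 and from −0.38 to −0.47 in Hsp90ab1. Each was then at an unadjusted p above 0.05. Of 14 immediate early genes, the AP-1 subunit Fosl2 in BD 14 against CD 14 was 1.01 ± 0.81 (SD, n = 6) against 0.10 ± 0.36 (SD, n = 6), limma adjusted p = 0.93. In BD 14 against BD 3 it was 1.01 ± 0.81 (SD, n = 6) against −0.27 ± 0.36 (SD, n = 5), limma adjusted p = 0.274. Without BD 14 replicate 2, high for 12 of these 14 genes, the Fosl2 differences went from 0.91 to 0.67 and from 1.28 to 1.05, and the list medians from 0.20 to −0.28 and from 0.41 to 0.042. With slide as a block the Fosl2 differences were 0.50 and 0.67.

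Markers of other cell types are given beside these results, and none passed limma at an adjusted p under 0.05. Of 10 macrophage markers, 6 were higher in CD 14 than in CD 3 at an unadjusted p under 0.05 and 0 lower, with a median difference of 1.17. With slide as a block 0 were higher and the median was 0.30. Their summed quantile-normalized Cy5 signal had a lowest, median and highest of 6019, 10020 and 15240 in CD 3 and 10590, 20600 and 51950 in CD 14, with Clec4f the brightest. Clec4f, a Kupffer cell gene, in CD 14 against CD 3 was −0.27 ± 0.64 (SD, n = 6) against −1.61 ± 1.06 (SD, n = 5), limma adjusted p = 0.281. Vsig4, a complement receptor of Kupffer cells, gave −0.21 ± 0.96 (SD, n = 6) against −1.93 ± 1.10 (SD, n = 5), limma adjusted p = 0.291. Cd68 gave −0.57 ± 0.35 (SD, n = 6) against −1.75 ± 1.10 (SD, n = 5), limma adjusted p = 0.315. This is the comparison in which Hsp90b1 had its largest difference, and whether these cells had a part in it was not tested. Of 5 endothelial markers 1 was higher in CD 14 than in CD 3, with a list median of 0.14, and 2 without CD 3 replicate 4. It was Lyve1, 0.59 ± 0.52 (SD, n = 6) against −0.94 ± 1.20 (SD, n = 5), limma adjusted p = 0.225. Of 6 lymphocyte and plasma cell markers 1 was higher there, with a list median of 0.43, and 2 without CD 3 replicate 4. It was the leukocyte gene Ptprc, 0.25 ± 0.60 (SD, n = 6) against −1.09 ± 1.58 (SD, n = 5), limma adjusted p = 0.426, a difference of 1.34 that was 0.31 in the slide model. In BD 14 against BD 3, the comparison in which Asns had its largest difference, 1 of the 10 macrophage markers was higher (2 without BD 14 replicate 2), with a list median of 0.34 that turned to −0.51 in the slide model. This was Cd14, 1.33 ± 0.57 (SD, n = 6) against −0.0021 ± 0.23 (SD, n = 5), limma adjusted p = 0.284, and its part was not tested. The Cd14 difference of 1.33 was 1.21 in the slide model, at an unadjusted p above 0.05. Of 5 red cell markers, 2 were lower in BD 3 than in CD 3, and 0 without CD 3 replicate 4, with list medians of −0.67 and −0.65. Hbb was −1.65 ± 0.81 (SD, n = 5) against −0.46 ± 0.86 (SD, n = 5), limma adjusted p = 0.585. The membrane transporter Slc4a1 was −1.41 ± 0.82 (SD, n = 5) against −0.45 ± 0.93 (SD, n = 5), limma adjusted p = 0.684. Of 10 hepatocyte markers 1 was higher in BD 14 than in CD 14, with a list median of 0.085, the transcription factor Hnf4a at 0.42 ± 0.24 (SD, n = 6) against −0.35 ± 0.48 (SD, n = 6), limma adjusted p = 0.952. For CD 14 against CD 3 the count was 1, with a list median of 0.20 that turned to −0.11 without CD 3 replicate 4, the fibrinogen gene Fgb at 0.49 ± 0.64 (SD, n = 6) against −0.30 ± 0.50 (SD, n = 5), limma adjusted p = 0.473. With slide as a block the Hnf4a difference went from 0.77 to 0.37 and that of Fgb from 0.78 to 0.22, each at an unadjusted p above 0.05. Among the other markers that passed the filter, 7 of stellate cells, 3 of bile duct and 2 of pancreatic acinar cells, the model with all rats and no slide term gave none an unadjusted p under 0.05 in the 4 comparisons. With slide as a block 1 stellate cell marker was higher and 1 lower in BD 3 than in CD 3, and 1 was lower in CD 14 than in CD 3. Without BD 14 replicate 2, 1 stellate cell marker was higher in BD 14 than in CD 14 and 1 bile duct marker higher in BD 14 than in BD 3, as was 1 without CD 3 replicate 4.

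Of the 34 differences of list and marker genes given above, 8 kept their sign and an unadjusted p under 0.05 with slide as a block: Nfe2l2 and Hbb in BD 3 against CD 3, Slc3a2 and Eif4ebp1 in BD 14 against CD 14, Lyve1 in CD 14 against CD 3, and Psat1, Phgdh and Nupr1 in BD 14 against BD 3. The other 26 did not, and 2 of them, Calr and Ssr1, turned sign. Where not given above, the difference went from 0.95 to 0.65 in Eif2ak2, from 1.34 to 0.69 in Clec4f and from 1.71 to 0.48 in Vsig4. It went from 1.19 to 0.34 in Cd68 and from −0.96 to −0.69 in Slc4a1. A p above 0.05 in that model does not by itself mean a smaller difference, which for Hsp90ab1 went from −0.38 to −0.47. Without BD 14 replicate 2, 30 of the 34 kept an unadjusted p under 0.05 and 4 did not, all in BD 14 against CD 14 and all with the same sign. Among those 4 the difference went from 0.86 to 0.73 in Slc3a2, from 0.48 to 0.42 in Eif4ebp1, from 0.58 to 0.53 in Lonp1 and from 1.06 to 0.71 in Hspb8. Without CD 3 replicate 4, 26 kept it and 8 did not, again with the same sign. For BD 3 against CD 3 these went from −1.19 to −1.01 in Hbb, from −0.96 to −0.76 in Slc4a1, from 0.83 to 0.56 in Hspa9 and from 1.17 to 0.73 in Calr. For CD 14 against CD 3 they went from −0.38 to −0.35 in Hsp90ab1, from −0.58 to −0.50 in Hsf1, from 0.78 to 0.67 in Nupr1 and from 0.78 to 0.65 in Fgb. These fits had 1 array fewer, so a p that was no longer under 0.05 does not show that the difference came from the array left out.

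The genes most like the mean of the scaled Hspa5, Hsp90b1, Dnajb9 and Herpud1 over the 22 arrays, among 16516 genes with a value on each, were Creld2 (r = 0.90), Kti12 (r = 0.90), Manf (r = 0.89), a probe without a gene symbol (r = 0.87) and Nqo1 (r = 0.84). Creld2 and Manf code for ER proteins and were also on the list of ER chaperones and folding enzymes. Those most like the mean of Atf4, Ddit3, Trib3 and Asns were Plekha1 (r = 0.84), Alpl (r = 0.81), Dusp8 (r = 0.79) and a pair of entries without a gene symbol (r = 0.79 and 0.77). Group means were not subtracted here, and values without the arrays that stood apart are not given. The averaged members did not all vary together. On the same ratios r was 0.84 for Hspa5 and Dnajb9 but 0.0051 for Hspa5 and Herpud1. It was 0.57 for Trib3 and Asns, −0.17 for Atf4 and Ddit3 and −0.22 for Ddit3 and Asns.

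By symbol, 9 of the 10 members were matched to promoters of 300 bases around the transcription start in the RefSeq table of build GRCr8, and that of Atf3 was not used here. Searched on both strands, the ER stress element (CCAAT, 9 bases of any kind, then CCACG) occurred in 3 of the 9, Hspa5, Hsp90b1 and Xbp1, and in 0.0657% of all 33469 promoters (22). Hsp90b1 held it at 2 places, 1 on each strand. Its CCACG part alone, which overlaps it, was in 8 of the 9 and in 31.6% of all promoters. The unfolded protein response element TGACGTGG was in 0 of the 9 and in 0.595% of all. The amino acid response core, TGATG followed by 1 base of any kind and AA, was in Herpud1 and Trib3 and in 3.98% of all promoters. A match describes the letters and not a site in use. The 5 promoters with the long element or the amino acid response core are printed 5′ to 3′ along the gene, because they show where these letters lie in genes of both branches, with matched bases of all 4 motifs in capitals and bases of any kind in lower case. Their positions are chr3:38452766-38453065 (plus strand) for Hspa5, chr7:23012244-23012543 (minus strand) for Hsp90b1, chr14:84604373-84604672 (plus strand) for Xbp1, chr19:10614658-10614957 (minus strand) for Herpud1 and chr3:161275484-161275783 (minus strand) for Trib3.
Hspa5: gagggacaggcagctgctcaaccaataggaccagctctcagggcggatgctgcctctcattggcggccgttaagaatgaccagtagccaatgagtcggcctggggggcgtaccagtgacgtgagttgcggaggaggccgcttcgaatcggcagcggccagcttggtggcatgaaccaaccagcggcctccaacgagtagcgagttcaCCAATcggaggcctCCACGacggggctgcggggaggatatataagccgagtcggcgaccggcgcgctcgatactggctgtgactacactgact
Hsp90b1: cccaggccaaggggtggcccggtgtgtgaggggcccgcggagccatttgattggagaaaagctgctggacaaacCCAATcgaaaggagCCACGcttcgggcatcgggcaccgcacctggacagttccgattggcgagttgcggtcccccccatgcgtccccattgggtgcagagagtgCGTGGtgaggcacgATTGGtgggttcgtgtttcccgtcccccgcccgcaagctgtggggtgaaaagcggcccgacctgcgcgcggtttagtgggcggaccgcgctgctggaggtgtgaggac
Xbp1: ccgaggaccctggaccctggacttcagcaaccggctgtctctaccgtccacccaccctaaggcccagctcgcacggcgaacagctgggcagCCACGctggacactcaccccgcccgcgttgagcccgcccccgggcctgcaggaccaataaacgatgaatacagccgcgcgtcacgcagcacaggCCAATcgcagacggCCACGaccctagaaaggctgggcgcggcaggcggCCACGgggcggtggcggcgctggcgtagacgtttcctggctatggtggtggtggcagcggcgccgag
Herpud1: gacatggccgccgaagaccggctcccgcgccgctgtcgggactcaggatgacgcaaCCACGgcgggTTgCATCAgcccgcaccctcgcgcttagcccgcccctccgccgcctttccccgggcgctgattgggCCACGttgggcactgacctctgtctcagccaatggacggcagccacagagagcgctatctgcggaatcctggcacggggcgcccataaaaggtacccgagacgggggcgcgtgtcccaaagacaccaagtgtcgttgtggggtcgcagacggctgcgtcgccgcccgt
Trib3: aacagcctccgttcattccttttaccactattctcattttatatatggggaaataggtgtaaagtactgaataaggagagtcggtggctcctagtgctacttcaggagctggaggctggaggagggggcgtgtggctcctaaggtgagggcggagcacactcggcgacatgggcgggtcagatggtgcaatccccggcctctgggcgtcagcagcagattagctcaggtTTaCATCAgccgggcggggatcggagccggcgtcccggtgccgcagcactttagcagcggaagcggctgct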

How the data were processed

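Agilent Feature Extraction was run by the authors, who deposited for each spot its raw intensity and its processed intensity, after subtraction of background and Lowess dye normalization. Also deposited were log10 ratios, Cy5 over Cy3 of the processed values. The software is version 10.7.3.1 in the labels and 10.10.1.1 in the headers, with probes placed on rn4.

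These ratios were converted to log2 without scaling between arrays, control spots and non-uniform spots were dropped, and the mean was taken where a probe had several spots. Testing was limited to probes for which, in 1 group or more, every array had 0.5 or more of the kept Cy5 spots well above background (19425 of 30367 probes; 690 lacked a value on some array). The 4 group means were fitted with limma 3.58.1 in R 4.3.3 and tested with eBayes, adjusted by Benjamini-Hochberg over all probes tested, threshold 0.05. Exact permutation tests of single members were two-sided (40 tests), and correlations were tested with 100000 permutations (45 pairs). Of 204 list entries 196 matched the array, 4 of them through synonyms in the GRCr8 table. Named genes are all members and, per list and comparison, up to 3 with the smallest unadjusted p under 0.05. Members and lists were chosen with earlier results of these data known. Python 3.11.15, numpy 2.4.6, pandas 2.3.3, scipy 1.17.1 and matplotlib 3.10.9 were used, and the steps were tested on simulated data.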

Additional observations from a re-analysis of the deposited data

Results flagged for a closer look

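In 8 of the 40 sets of values, a member in a group, the highest or lowest rat lay far from the others, by the gap to the nearest rat over the whole range. Chance gives such a gap in about 1 set in 20. The 40 sets share the same arrays and are not independent, and the share of all probes with such a gap is not given. The count of 8 is therefore not a result about the members. For Hspa5, BD 14 replicate 2 was the highest at 0.91, the nearest rat being at 0.088, a gap of 0.765 of the range. For Dnajb9, BD 14 replicate 2 was the highest at 1.65, the nearest rat being at 0.30, a gap of 0.679 of the range. For Herpud1, BD 14 replicate 2 was the lowest at −0.89, the nearest rat being at 0.17, a gap of 0.672 of the range. For Atf4, BD 14 replicate 2 was the highest at 2.09, the nearest rat being at 0.050, a gap of 0.819 of the range. For Atf3, BD 14 replicate 2 was the highest at 4.63, the nearest rat being at 1.72, a gap of 0.707 of the range. For Ddit3, CD 3 replicate 4 was the highest at 1.54, the nearest rat being at 0.53, a gap of 0.793 of the range. For Xbp1, BD 14 replicate 2 was the highest at 2.69, the nearest rat being at −0.36, a gap of 0.714 of the range. For Trib3, BD 3 replicate 2 was the highest at 0.70, the nearest rat being at −0.83, a gap of 0.712 of the range. Of the 8, 6 are the same rat, BD 14 replicate 2, and 1 is CD 3 replicate 4, the array with the lowest share of spots well above background. The cause was not tested.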

How the results depend on the processing

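The count of members called was 0 in each comparison under every alternative run, and with each array left out in turn. From its value with all arrays, the median difference of the members moved by less than 1 SD of the array means (0.39) except within slide B, where it was 0.41 for BD 3 against CD 3, beside 0.26 over all probes. With the slide as a block it turned to 0.24 for BD 3 against CD 3 and 0.29 for CD 14 against CD 3, while the median over all probes went from 0.031 to 0.15 and from 0.029 to 0.14. Leaving out single arrays, it ran from −0.21 to 0.0052 for BD 3 against CD 3, 0.12 to 0.35 for BD 14 against CD 14, −0.11 to 0.091 for CD 14 against CD 3, 0.11 to 0.38 for BD 14 against BD 3 and 0.16 to 0.62 for the interaction. Hsp90b1 changed sign with the slide as a block, to −0.20 for BD 3 against CD 3 and −0.015 for CD 14 against CD 3, and to −0.75 within slide E for the latter; the cause was not tested. Pairs of members passing by Pearson, not all of them the same pairs, numbered 11 (4 by Spearman), 12 (0) without subtracting the group mean, 10 (1) in Cy5 alone, 5 (3) without BD 14 replicate 2, 11 (5) without CD 3 replicate 4 and 3 (0) without both, the last 3 settings chosen after seeing the data. Of the 11, those that did not pass in Cy5 alone were Hspa5 and Ddit3 (r = −0.44), Dnajb9 and Ddit3 (r = −0.30), Herpud1 and Xbp1 (r = −0.52), Atf3 and Xbp1 (r = 0.56), and Xbp1 and Trib3 (r = 0.49).

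Rats that share a number are different animals, and the numbers do not pair the arrays: the correlations of deviations of same-numbered arrays ran from −0.26 to 0.29. With the replicate block, 0 members were called in each comparison, and the median differences were −0.075, 0.24, −0.024 and 0.30 in the order above. Over all probes, the count at an adjusted p under 0.05 was 0 for BD 3 against CD 3, and 208 in Cy5 alone, 2 with centred arrays, 2 without the 2 arrays of most non-uniform spots and 0 to 93 with 1 array left out. For BD 14 against CD 14 it was 0, and 4 with array weights; for CD 14 against CD 3 it was 0, and 5 in Cy5 alone and 0 to 205 with 1 array left out. For BD 14 against BD 3 it was 0, and 99 with array weights, 23 with the 2 groups alone, 6 in Cy5 alone, 4 with an intensity trend and 2 with a strict filter. The F test had 5, and 103 in Cy5 alone, 11 with array weights, 3 and 2 with a strict filter and with none, 1 with either block and 0 to 140 with 1 array left out. The methods' test gave 1 in each comparison but BD 3 against CD 3. Other probes of a member and the authors' table of selected entries were not run, since each member has 1 probe and that table, used nowhere here, lists none of them.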
